A study of Columba livia with 6 samples.

Results

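The pigeon ovary assembly holds 4844 intergenic loci without a gene name that overlap no other locus on either strand, out of 34346 loci in all (14.1%). They were chosen by 3 properties of the deposited table, namely an empty gene name, no protein description and an interval that shares no base with another row. The other 1002 of the 5846 unnamed loci overlap a neighbour and were left out. Each of the 6 RNA-seq libraries was made from the whole ovary of 1 female domestic pigeon (Columba livia), 2 years old, sexually mature and without treatment. The HP group (HP1, HP2 and HP3) had high egg production, and the LP group (LP4, LP5 and LP6, numbered as in the sample titles) had low egg production. The birds of both groups came from 1 flock, had the same genetic background and were picked as the extremes of its laying records, so each group is a selected tail and not a line. Libraries were built after removal of ribosomal RNA, with dUTP in the second strand so that the strand of origin of a read can be told, but the sources used here do not say whether the counting used it.

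Intergenic transcripts are RNAs that arise between annotated genes. Some are long non-coding RNAs, which can act on neighbouring genes, on chromatin or in the cytoplasm. Others are unannotated ends of known genes, transcripts of regulatory elements or repeats, or pieces of genes that a fragmented genome assembly leaves on short scaffolds. A count alone does not separate these kinds, and the loci are called unnamed intergenic loci here whatever they encode.

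One of the 4844 loci is in the primer list of the study, MSTRG.11922 (NW_004973372.1:885612-886117 in Cliv_1.0, 506 bases, no strand assigned). The primers are shown because they are the designed sequences for an unnamed intergenic RNA. The locus is known as a qPCR target from that list alone, since the methods name other lncRNAs. They are written 5′ to 3′, with the 5 bases at the 3′ end in capitals, where the polymerase starts to extend.
MSTRG.11922 forward primer: ctccatcgaacggggAACAA
MSTRG.11922 reverse primer: cttctggggaggtgaAAGCC
Both primers are 20 bases long, with 11 G or C bases in the forward and 12 in the reverse primer.

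The libraries held between 97875183 and 108669967 counts. The first principal component of the 28274 loci that were tested between the groups (25% of the variance) had HP2 and LP4 at its ends. Every HP ovary (-22.3, -92.6 and -26.9 in HP1, HP2 and HP3) lay below every LP ovary (93.5, -0.11 and 48.5 in LP4, LP5 and LP6) on it. Of the fixed markers of ovarian cells, 4 of 7 oocyte genes were found, with a summed level of 249 to 383 CPM (counts per 1000000 counts of the library) in HP and 242 to 333 in LP ovaries. The summed level of 5 of 6 granulosa markers was 482 to 1004 CPM in HP and 734 to 908 in LP ovaries. Of the theca and steroid cell list only STAR, the cholesterol carrier of steroid synthesis, was matched by symbol, at 6.01 to 10.6 CPM in HP and 6.61 to 14.5 in LP ovaries. Kidney markers (4 of 10 matched) summed to 139 CPM in HP2, 38.1 and 51.0 in the other HP ovaries and 24.4 to 42.3 in LP ovaries. Since whole ovaries were sequenced, fewer cells of a type and less RNA per cell cannot be told apart in any difference given here.

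All 4844 loci were assembled from the reads of these same ovaries, and 0 of them contained a transcript of the reference annotation, a GO term or a KEGG pathway. A locus thus had to be covered by reads in these libraries to enter the table. A single transcript made up 4586 of the loci, and the most complex one had 15. No strand was assigned to 3302 loci (68.2%), while 786 lay on the plus and 756 on the minus strand. All 3302 loci without a strand had 1 transcript. The median span of the unnamed intergenic loci was 617 bases, with quartiles of 331 and 1532 bases, a minimum of 200 and a maximum of 253446 bases. Named loci without overlap had a median span of 8029 bases. Added up, the unnamed intergenic loci covered 13379480 bases.

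The loci were spread over 2304 of the 2982 scaffolds that carry any locus, with at most 56 on 1 scaffold. On 1615 scaffolds they had no named locus beside them. These scaffolds held 1714 of the loci (35.4%), and 1529 loci were the only locus on their scaffold. The first base of the scaffold was the start of 981 loci, and 1108 started within 10 bases of it, of which 1041 were on scaffolds without a named locus. Such loci may continue beyond the end of the scaffold, so that their true length is unknown.

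For the 3130 loci on a scaffold with a named locus, the median distance to the nearest one was 6128.5 bases, with quartiles of 1445 and 20311.8 bases, a minimum of 1 and a maximum of 524205 bases. Within 5000 bases lay 1457 of them (46.5%), and 169 were over 100000 bases away. More of them lay upstream of the start of the nearest named locus (1783) than downstream of its end (1293), while for 54 the named neighbour had no strand. Within 1000 bases, 461 lay upstream and 189 downstream, whereas over 50000 bases away 176 lay upstream and 212 downstream. Of the upstream loci within 1000 bases, 154 had the strand of the neighbour, 99 the opposite strand and 208 no strand. Of the downstream ones, 54 had the same strand, 107 the opposite strand and 28 none.

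**Figure D1:**
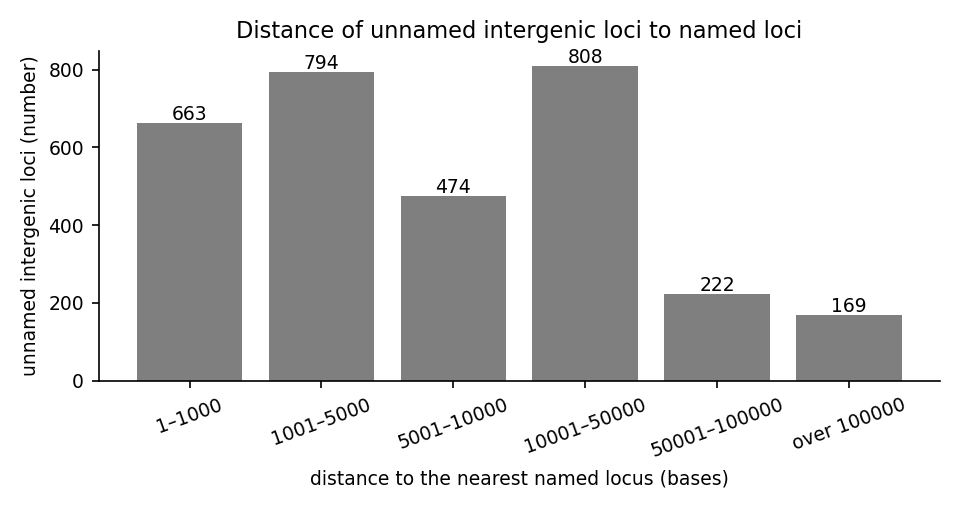
Number of unnamed intergenic loci (y axis) by distance in bases to the nearest named locus (x axis), for the 3130 loci that share a scaffold with a named locus. Bars of 663 and 794 loci stand at up to 1000 and at over 1000 to 5000 bases, and 169 loci lie over 100000 bases away.

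The deposited FPKM values (fragments scaled by transcript length and library depth) could not be used to rank these loci. In the loci without a strand, which consist of 1 transcript, the length implied by count and FPKM was a median of 2565 bases for spans of 200 to 300 bases and 1964 bases for spans over 2000 bases. Over these 3302 loci the Spearman correlation of implied length with span was -0.03, and the implied length exceeded the whole span in 82.5% of them. The mean count itself followed the span (Spearman correlation 0.72 over the same loci, which share the 6 libraries). The ratio of count to FPKM varied by a median of 1.10% between ovaries, so the comparison of a typical locus between ovaries was little affected. Single loci can depart from that median. Levels of different loci are therefore given as CPM per kilobase of genomic span.

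On that scale the median locus stood at 1.49 CPM per kilobase, with 0.71 at the 10th and 6.23 at the 90th percentile. Named loci without overlap had a median of 0.55, but their span includes introns, so the 2 medians are not levels of mature RNA. The mean count of the median unnamed intergenic locus was 119. Loci without a strand had a median of 1.44 CPM per kilobase, with 0.85 at the 10th percentile. Loci with a strand had a median of 1.67 and reached lower, with 0.25 at the 10th percentile. Loci without a strand crowded just above their own minimum. In the ovary where each was highest they had at least 123 counts per kilobase, with a median of 228, and 66.0% of them lay within 2-fold of the 1st percentile of 146.

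Most of the loci were found in every bird. At least 10 counts were reached in all 6 ovaries by 4240 loci (87.5%). The number with at least 10 counts was 4663, 4608 and 4636 in HP1, HP2 and HP3, against 4626, 4665 and 4650 in LP4, LP5 and LP6. The groups overlapped (difference of means -11.3, two-sided exact permutation test, p = 0.6). At 0 counts in every ovary of 1 group were 9 loci in HP and 13 in LP. Only MSTRG.28598 among them had at least 10 counts in each ovary of the other group. The whole table was not counted in this way.

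The unnamed intergenic loci took a smaller share of all counts in HP than in LP ovaries. The share was 2.55, 2.40 and 2.38% in HP1, HP2 and HP3, against 2.75, 2.86 and 2.65% in LP4, LP5 and LP6. Every LP ovary was above every HP ovary, and the means were 2.44 ± 0.094% in HP and 2.75 ± 0.104% in LP (SD, n = 3 each). The difference of -0.307 percentage points had p = 0.1 in a two-sided exact permutation test, the smallest p that 3 ovaries against 3 allow. The 10 loci of highest mean count made up 0.365, 0.267 and 0.336% of counts in HP and 0.421, 0.518 and 0.443% in LP ovaries. Without them the groups still did not overlap (2.19, 2.13 and 2.04% in HP, 2.32, 2.34 and 2.20% in LP), while the difference was reduced to -0.169 percentage points. Markers of blood and immune cells (3 of 4 matched, with PTPRC, which marks leukocytes in general, unmatched) were also lower in HP ovaries without overlap, with a summed level of 1.75 to 2.28 CPM in HP and 2.54 to 3.17 CPM in LP ovaries, and their part in the lower share was not tested. That sum was almost wholly CD3E, a gene of the T cell receptor complex (1.75, 1.93 and 2.17 CPM in HP1, HP2 and HP3, against 3.17, 2.66 and 2.45 CPM in LP4, LP5 and LP6), while the globin gene HBAD was at 0 in 5 of the 6 ovaries.

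The lower share in HP ovaries appeared on both kinds of scaffold. Loci on scaffolds without a named locus took 0.864, 0.735 and 0.794% of counts in HP and 0.993, 1.06 and 0.938% in LP ovaries. Loci on scaffolds with a named locus took 1.69, 1.66 and 1.58% in HP and 1.75, 1.79 and 1.71% in LP ovaries. Both sets were separated between the groups. It also held for the loci at least 1000 bases from every other locus, with 1.62, 1.53 and 1.54% in HP and 1.84, 1.85 and 1.73% in LP ovaries. It was not particular to them, since the unnamed loci that overlap a neighbour took 2.65, 2.47 and 2.32% in HP and 2.81, 3.23 and 3.26% in LP ovaries. Named loci without overlap took 42.5, 43.1 and 43.8% in HP and 42.8, 41.8 and 41.9% in LP ovaries, where the groups overlapped.

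**Figure D2:**
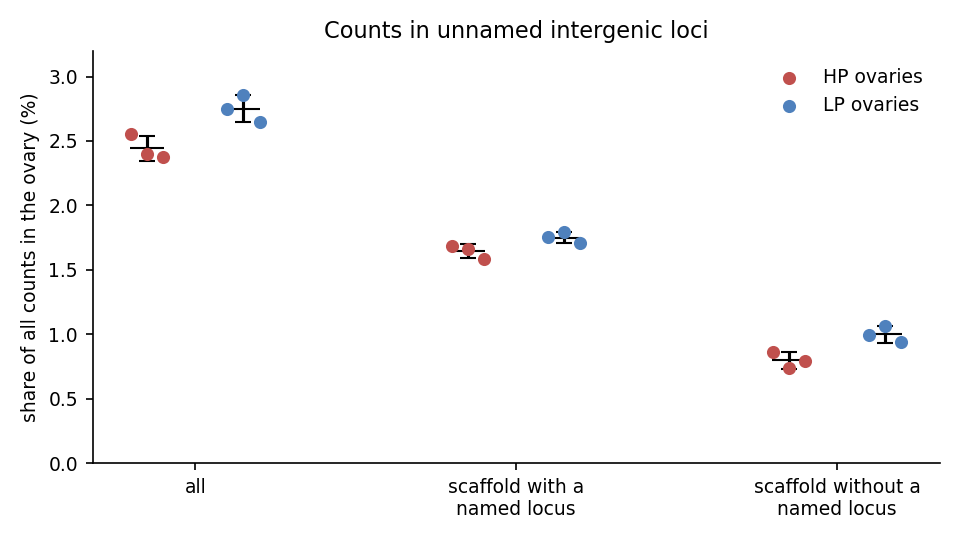
Share of all counts of an ovary (y axis, %) that fell in unnamed intergenic loci, for all 4844 loci and for those on scaffolds with and without a named locus (x axis). Points are the ovaries (HP left, LP right of each pair), horizontal lines the means and bars 1 SD (n = 3 each), and in all 3 sets each LP ovary lies above each HP ovary.

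For the comparison of HP with LP, edgeR's quasi-likelihood test was fitted to the counts of all 28274 loci whose mean FPKM reached 0.1. Of the 4844 unnamed intergenic loci 4000 were tested and 844 were not. Since the FPKM did not follow the length of these loci, the filter also removed some well covered ones. Of the 844, 832 had a mean of at least 10 counts. The mean count of the 844 had a median of 38.75 and a maximum of 637. A locus met the limits with an unadjusted p under 0.05 and group means of FPKM that differed by a log2 ratio of 1 or more in size. These limits were met by 158 of the 4000 loci (3.95%), where the whole table had 3.11%. The whole table was not matched to these loci on level. At mean counts under 50, 50 to under 200 and 200 to under 1000 the share was 5.20, 4.17 and 3.45%. Named loci without overlap had higher shares in these classes, at 5.86, 7.37 and 5.56%. At 1000 counts or more the order was the other way, with 2.98% of unnamed intergenic and 0.93% of named loci. Among the 158 loci 76 were higher in HP (1.9%, against 2.09% of the whole table), and 82 were lower in HP (2.05%, against 1.02% of the whole table). Without HP2, 44 were higher and 64 lower of 3996 tested, and the number in the whole table also fell, from 880 to 702. After Benjamini-Hochberg adjustment over all 28274 loci the edgeR test left 0 of them (0.0106% of the whole table), with a smallest adjusted p of 0.155, against 271 at an unadjusted p under 0.05 (6.78%, where the whole table had 8.24%). DESeq2 left 36 at an adjusted p under 0.05 (0.90%, where the whole table had 1.36%), and 35 of these were among the 158.

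Most unnamed intergenic loci were slightly lower in HP ovaries. The log2 fold change was below 0 in 65.2% of the 4000 loci, compared with 51% of the whole table and 46.5% of named loci without overlap. Its median was -0.14, compared with -0.01 over all loci and 0.03 in named loci without overlap. The values of HP and LP ovaries did not overlap and were lower in HP in 437 loci (10.9%, where the whole table had 7.17%), and they were higher in HP in 136 (3.4%, where the whole table had 7.38%). The highest CPM of a locus was found in LP4, LP5 or LP6 for 62.8% of the 4844 loci and for 49.0% of the other loci. Unnamed loci that overlap a neighbour had nearly the same median, -0.13, with 64.6% below 0. The unnamed intergenic loci also varied more between birds of a group. In loci with a mean of at least 50 counts, their median coefficient of variation was 22.7% in HP and 24.1% in LP ovaries, compared with 16.7% in HP and 17.3% in LP for named loci without overlap. The 2 sets were not matched on level. A mean of 1000 counts or more was reached by 537 of these 3657 unnamed and 5676 of these 10143 named loci. The part of the level in this difference was not tested.

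**Figure D3:**
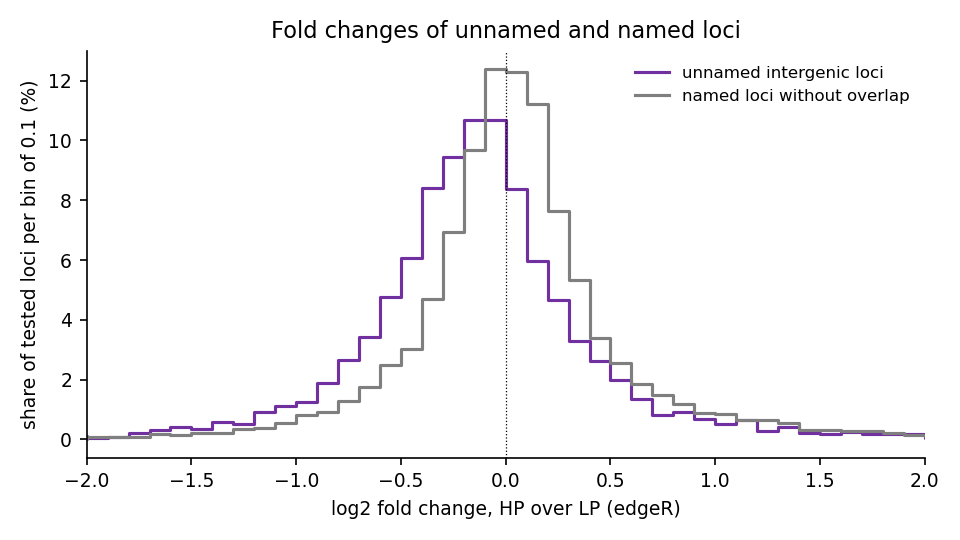
Distribution of the log2 fold change of HP over LP (x axis; loci beyond 2 in either direction are not drawn) in unnamed intergenic loci and in named loci without overlap (y axis, share of tested loci per bin of 0.1 in %). The curve of the unnamed loci lies to the left, with a median of -0.14 against 0.03.

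The fold change went with the span of the locus, and it did so in named loci too. In unnamed intergenic loci of 200 to 300 bases the median log2 fold change was -0.27 and 71.6% were below 0. The median was -0.17 for spans over 300 and up to 600 bases, -0.13 up to 2000 bases, -0.11 up to 10000 bases and -0.01 over 10000 bases. Named loci without overlap had medians of -0.22, -0.17, -0.08, -0.02 and 0.08 in 5 classes with the same upper bounds. Their shortest class held all spans up to 300 bases, with a minimum of 71 and a median of 206 over tested and untested loci. The median of unnamed minus that of named loci was -0.05 and -0.0012 in the 2 shortest classes and between -0.09 and -0.04 in the others. Among named loci without overlap, 311 of the 10976 tested had a span of up to 600 bases, against 1683 of the 4000 unnamed intergenic loci. Whether span accounts for the lower level of unnamed loci in HP was not tested.

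By ovary, the shortest unnamed loci (200 to 300 bases) stood at a median of -0.02, -0.11 and -0.10 in HP1, HP2 and HP3, against 0.02, 0.14 and 0.18 in LP4, LP5 and LP6, as log2(CPM + 0.05) relative to each locus's own mean over the 6 ovaries. Loci over 10000 bases stood at 0.04, 0.07 and -0.10 in HP1, HP2 and HP3, against -0.01, -0.06 and -0.0037 in LP4, LP5 and LP6. The groups were therefore separated in the shortest loci and overlapped in the longest. In the named loci of up to 300 bases the medians were -0.02, -0.10 and -0.10 in HP1, HP2 and HP3, against 0.07, 0.17 and 0.03 in LP4, LP5 and LP6, with the same order of the groups. Named loci over 10000 bases were separated the other way, unlike the long unnamed loci, at 0.04, 0.05 and 0.06 in HP1, HP2 and HP3, against -0.02, -0.06 and -0.07 in LP4, LP5 and LP6.

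The direction of the loci that met the limits changed with the span as well. Of 1683 tested loci of up to 600 bases, 16 were higher (0.95%) and 48 lower (2.85%) in HP. Of 253 tested loci over 10000 bases, 18 were higher (7.11%) and 3 lower (1.19%) in HP. The whole table had 2.09% higher and 1.02% lower. Named loci without overlap of up to 300 bases had 1 higher and 1 lower of 91 tested. Those of over 300 to 600 bases had 1 higher and 6 lower of 220, so more lower than higher loci at short span was not particular to unnamed loci. In named loci without overlap over 10000 bases the numbers were 171 higher and 26 lower of 5411, so a majority of higher loci at long span was shared with named loci. The share that met the limits among the long unnamed loci, 8.30%, was above the 3.64% of the long named loci, but the numbers depended on single birds. Without HP2, 9 long unnamed loci were higher and 2 lower, and without LP5, 9 were higher and 2 lower. The long named loci were not recounted with a bird left out. Without HP2, 7 of the loci of up to 600 bases were higher and 37 lower. These bounds on span were chosen after the data were seen.

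**Figure D4:**
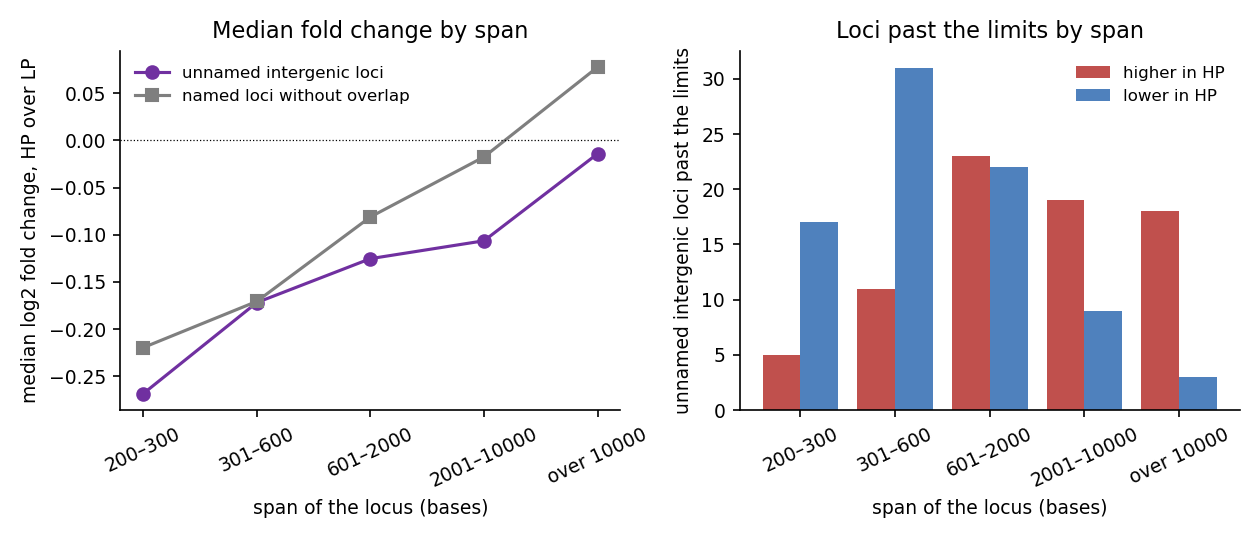
Left, median log2 fold change of HP over LP (y axis) by span in bases (x axis) for unnamed intergenic loci and named loci without overlap. The shortest class of named loci holds all spans up to 300 bases, without a lower bound of 200 bases. Right, number of unnamed intergenic loci that met the limits (y axis) in the same classes, higher in HP (left bars) and lower in HP (right bars). Both lines climb with span, and the bars turn from 5 higher and 17 lower at 200 to 300 bases to 18 higher and 3 lower over 10000 bases.

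The loci were also divided by strand and place, against a background of 2.09% of all tested loci higher and 1.02% lower in HP. Loci without a strand had a median log2 fold change of -0.17, with 30 higher and 54 lower in HP among 2575 tested. Loci with a strand, which were longer (median span 1773 against 452 bases), had a median of -0.10, with 46 higher and 28 lower among 1425. On scaffolds without a named locus the median was -0.14, with 23 higher and 33 lower of 1346, and on the other scaffolds it was also -0.14, with 53 higher and 49 lower of 2654. By distance to the nearest named locus, the median lay between -0.09 within 1000 bases and -0.30 over 100000 bases. Within 1000 bases 6 loci were higher and 11 lower in HP of 597 tested, and at over 1000 to 5000 bases 12 were higher and 16 lower of 682. At over 10000 to 50000 bases the numbers turned to 20 higher and 7 lower of 662. The classes between and beyond held 6 higher and 5 lower of 406 at over 5000 to 10000 bases, 6 higher and 4 lower of 174 at over 50000 to 100000 bases, and 3 higher and 6 lower of 133 further away. The 249 tested loci of several transcripts had a median of -0.04.

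Among loci higher in HP the values of HP2 stood out. Of the 76 loci, 45 had their highest CPM in HP2, 18 in HP3 and 13 in HP1. Over all unnamed intergenic loci the highest CPM was in HP1, HP2 and HP3 for 684, 629 and 489 loci. Over all other loci the numbers were 4674, 5465 and 4914, so HP2 led the HP ovaries there too. Other loci that met the limits were not counted by ovary, so the lead of HP2 is not shown to be particular to unnamed loci. The summed kidney markers were also highest in HP2, at 139 CPM against 24.4 to 51.0 in the other ovaries, and their part in these 45 loci was not tested. Among the 82 loci lower in HP the highest CPM was spread evenly, with 28 in LP4, 26 in LP5 and 28 in LP6. Markers of stroma and smooth muscle (4 of 5 matched) summed to 1011 to 1661 CPM in HP and 1351 to 3798 CPM in LP ovaries, which overlap, and their part in these loci was not tested.

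The smallest unadjusted p among the loci higher in HP belonged to MSTRG.16175, a minus-strand locus of 95117 bases (NW_004973488.1:778650-873766) that lies 60462 bases from LOC110363262, a locus without protein description. Its counts were 2004, 2068 and 1351 in HP1, HP2 and HP3, against 434, 353 and 323 in LP4, LP5 and LP6. All 3 HP ovaries were far above all 3 LP ovaries. The log2 fold change was 2.22 ± 0.26 (SE), with an adjusted p of 0.197 in edgeR's test and 2.62e-13 in DESeq2. It averaged 17.2 ± 3.9 CPM in HP and 3.69 ± 0.74 CPM in LP ovaries (SD, n = 3 each).

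The next locus had the tightest groups. MSTRG.26188 (NW_004974169.1:212946-214121, minus strand, 1176 bases) had counts of 1007, 946 and 1015 in HP1, HP2 and HP3, against 453, 423 and 543 in LP4, LP5 and LP6. It lies 1494 bases upstream of HOXC8, a homeobox transcription factor of the body axis, on the opposite strand. The log2 fold change was 1.01 ± 0.17 (edgeR adjusted p = 0.520), whereas HOXC8 itself stood at 0.19 ± 0.25 (adjusted p = 0.855) with overlapping counts of 849 to 1448 in HP and 816 to 1013 in LP ovaries. The unnamed locus was picked because its groups did not overlap, whereas HOXC8 was not picked on its values. This contrast is therefore partly set by the choice of the locus, and the difference between MSTRG.26188 and HOXC8 was not tested.

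MSTRG.14532, a plus-strand locus of 27385 bases, had counts of 246, 178 and 279 in HP1, HP2 and HP3, against 76, 77 and 79 in LP4, LP5 and LP6 (log2 fold change 1.53 ± 0.27, edgeR adjusted p = 0.520). MSTRG.3004, a minus-strand locus of 26854 bases that lies 176 bases upstream of the lncRNA locus LOC110357095, had counts of 1710, 1474 and 1245 in the HP ovaries and 490, 767 and 865 in the LP ovaries (log2 fold change 1.01 ± 0.24). In both the groups did not overlap, which was a condition of their choice, and the long span was shared with MSTRG.16175. MSTRG.14532, at a mean FPKM of 0.121, passed the filter of 0.1 only through the HP ovaries. MSTRG.26900 lies on a scaffold with no named locus (NW_004974434.1:20280-22747, minus strand). Like MSTRG.14532, it passed the filter on FPKM only through the HP ovaries. It had counts of 113, 161 and 209 in HP1, HP2 and HP3, against 4, 32 and 9 in LP4, LP5 and LP6, so that it was nearly silent in 2 of the 3 LP ovaries (log2 fold change 3.36 ± 0.77, edgeR adjusted p = 0.551).

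In a further set of loci the difference rested more on HP2. MSTRG.25212 had counts of 53, 229 and 32 in HP1, HP2 and HP3, against 8, 8 and 4 in LP4, LP5 and LP6 (log2 fold change 3.91 ± 0.92), and lies 3307 bases downstream of LOC102085713, named GABRQ in RefSeq, a subunit of the GABA receptor. MSTRG.15389 had counts of 121, 224 and 80 in the HP ovaries and 32, 26 and 21 in the LP ovaries (2.37 ± 0.50). MSTRG.5454 had counts of 411, 635 and 307 in the HP ovaries and 106, 153 and 154 in the LP ovaries (1.67 ± 0.35). In all 3 loci the groups were separate, as their choice required, HP2 was the highest ovary and the edgeR adjusted p was 0.551 to 0.557. MSTRG.25212, at a mean FPKM of 0.126, passed the filter of 0.1 only through the HP ovaries. MSTRG.24811, which lies 3357 bases upstream of HDGFL3, a gene of the hepatoma-derived growth factor family, had counts of 341, 409 and 283 in the HP ovaries and 141, 181 and 174 in the LP ovaries (1.01 ± 0.25, adjusted p = 0.560), and HDGFL3 stood at 0.47 ± 0.18.

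**Figure D5:**
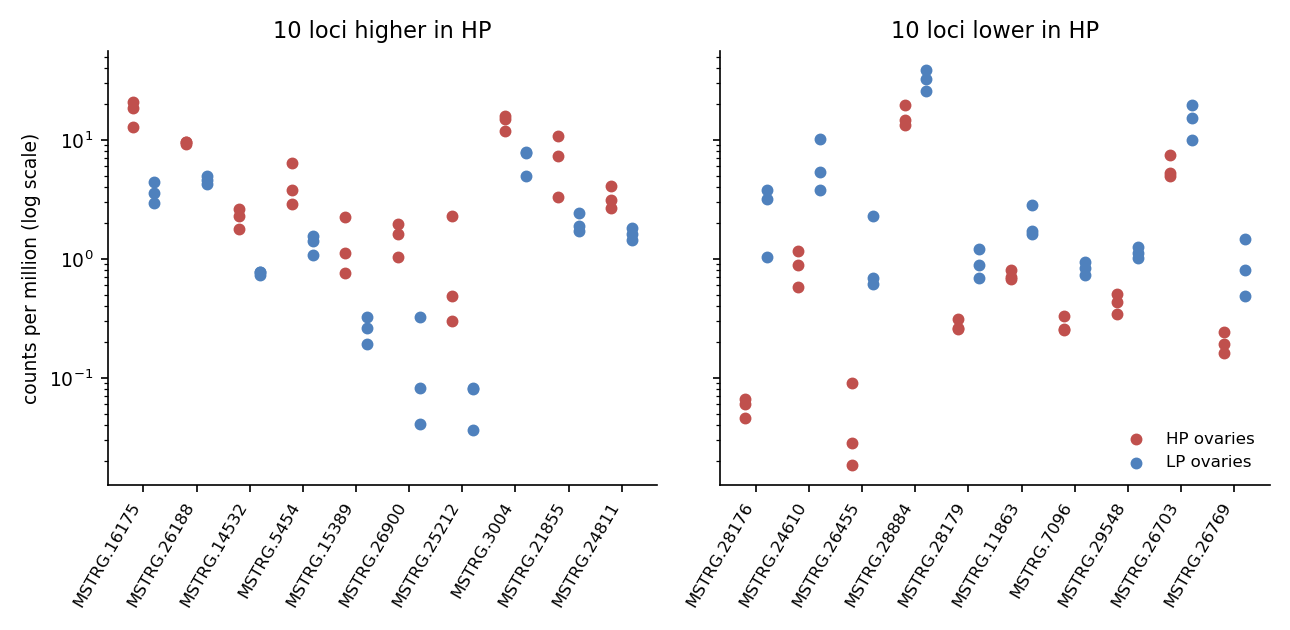
CPM (log axis) in each ovary of the 10 loci higher (left) and the 10 lower (right) in HP with the smallest unadjusted p among those that met the limits and did not overlap between groups. Each point is 1 ovary, with HP left of LP, and MSTRG.28176 and MSTRG.26455 are below 0.1 CPM in all 3 HP ovaries.

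The smallest unadjusted p in the other direction was found at the start of a scaffold. MSTRG.28176 starts at base 1 of NW_004975893.1 and spans 363 bases on the plus strand, and no named locus lies on that scaffold. It had counts of 5, 6 and 7 in HP1, HP2 and HP3, against 102, 378 and 347 in LP4, LP5 and LP6. All HP ovaries were near 0 and all LP ovaries above 100 counts. Its log2 fold change was -5.53 ± 0.61, with an adjusted p of 0.155 in edgeR's test and 1.8e-13 in DESeq2. Without LP4 its edgeR adjusted p was 0.0246, which made it the only unnamed intergenic locus past that threshold when any 1 library was left out.

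A similar on and off pattern was found in a locus that the filter on FPKM had removed. MSTRG.28598 (NW_004977651.1:8-817, plus strand, 810 bases, no named locus on the scaffold) had counts of 0, 0 and 0 in HP1, HP2 and HP3, against 120, 156 and 180 in LP4, LP5 and LP6. Set against a floor of 3 counts per library the level in HP ovaries was at least 50.7-fold lower. The floor covers counting error only. Its mean FPKM was 0.0764, and in the edgeR fit without the filter its adjusted p was 0.116. MSTRG.26455, a locus of 397 bases without a strand, had counts of 2, 9 and 3 in HP1, HP2 and HP3, against 225, 69 and 67 in LP4, LP5 and LP6 (log2 fold change -4.72 ± 0.86, edgeR adjusted p = 0.551). Its nearest named locus, LOC110356094, was 100885 bases away. All 3 loci were thus close to silent in every HP ovary and well covered in every LP ovary. They were assembled from the reads of these same ovaries, so nearly all reads behind their entry came from LP ovaries. MSTRG.28598 was also picked for its 0 counts in every HP ovary. The pattern is therefore partly set by how the loci entered the table and were picked.

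Other loci lower in HP were expressed in all birds. MSTRG.24610 (NW_004973942.1:99-3454, no strand) had counts of 127, 89 and 61 in HP1, HP2 and HP3, against 371, 536 and 1093 in LP4, LP5 and LP6 (log2 fold change -2.89 ± 0.46, edgeR adjusted p = 0.520). MSTRG.28884, which spans only 291 bases from the first base of its scaffold, was one of the more abundant, with 1577, 1949 and 1397 counts in the HP ovaries and 3160, 3791 and 2804 in the LP ovaries (-1.05 ± 0.21). MSTRG.29548, also from the first base of its scaffold, had counts of 55, 34 and 46 in the HP ovaries and 100, 112 and 137 in the LP ovaries (-1.43 ± 0.31). These loci lie on scaffolds with no named locus, and in each the groups did not overlap, as their choice required. MSTRG.29548, like MSTRG.28179 and MSTRG.26769 below, passed the filter on FPKM only through the LP ovaries. MSTRG.28179, MSTRG.11863, MSTRG.7096 and MSTRG.26769, short loci without a strand, had counts of 17 to 87 in HP and 48 to 282 in LP ovaries, with log2 fold changes of -1.76, -1.51, -1.60 and -2.22.

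One of the lower loci lay next to a gene of known function that also met the limits. MSTRG.26703 (NW_004974336.1:264765-269980, plus strand, 5216 bases) lies 60 bases downstream of ELN, on the same strand. ELN encodes elastin, the protein of elastic fibres in vessel walls and connective tissue. MSTRG.26703 had counts of 815, 528 and 527 in HP1, HP2 and HP3, against 1910, 1505 and 1075 in LP4, LP5 and LP6. ELN had counts of 715, 422 and 607 in the HP ovaries and 1347, 1190 and 864 in the LP ovaries. The locus and its neighbour ranked the LP ovaries alike and both met the limits, with log2 fold changes of -1.35 ± 0.30 (edgeR adjusted p = 0.551) and -1.04 ± 0.28 (adjusted p = 0.572).

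MSTRG.11922, whose primers are printed above, had counts of 19, 43 and 30 in HP1, HP2 and HP3, against 19, 427 and 623 in LP4, LP5 and LP6. LP4 was as low as the lowest HP ovary, so the groups overlapped, and the difference rested on LP5 and LP6. The log2 fold change was -3.54 ± 1.10, with an unadjusted p of 0.0159 and an adjusted p of 0.584 in edgeR's test and 0.0178 in DESeq2. Its nearest named locus, 2772 bases away, is CUNH2orf40, which encodes augurin, a small secreted peptide, and stood at -0.17 ± 0.39 (edgeR adjusted p = 0.925).

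The fold changes of unnamed intergenic loci went with those of named loci most closely within 1000 bases. Over 566 pairs within 1000 bases the Spearman correlation of the 2 log2 fold changes was 0.37. It was 0.19 over 593 pairs at over 1000 to 5000 bases and 0.22 over 331 pairs at over 5000 to 10000 bases. Over 489 pairs at over 10000 to 50000 bases it was 0.11, and over 88 pairs at over 50000 to 100000 bases it was 0.01. Over 63 pairs further than 100000 bases apart it was 0.21. All pairs share the 6 libraries and their normalization, and neighbours within 1000 bases can share transcripts or reads. Named loci without overlap had much the same values at short distance from their own nearest named neighbour, at 0.30 over 3990 pairs within 1000 bases and 0.17 over 2968 pairs at over 1000 to 5000 bases. Their correlation was 0.14 at over 5000 to 10000 bases, 0.13 at over 10000 to 50000 bases and 0.06 at over 50000 to 100000 bases. Over 49 pairs further apart it was -0.22. The relation at short distance was thus not particular to unnamed loci. Within 1000 bases it was 0.60 for the 49 loci downstream on the same strand and 0.49 for the 135 upstream on the same strand, compared with 0.43 over 101 pairs downstream and 0.34 over 84 pairs upstream on opposite strands. For the 194 loci without a strand it was 0.24.

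Few loci that met the limits had a neighbour that did. Of the 158, 56 were on scaffolds without a named locus and 77 had a tested nearest named locus. In 6 of these 77 pairs (7.79%) the named locus also met the limits, where 2.94% of the 23331 tested named loci did, and in 5 of the 6 the direction was the same. The pair of MSTRG.26703 and ELN was one. MSTRG.21855, a minus-strand locus of 23541 bases, had counts of 798, 1074 and 347 in HP1, HP2 and HP3, against 239, 169 and 204 in LP4, LP5 and LP6 (1.80 ± 0.44), and the lncRNA locus LOC110365815, 22029 bases away, stood at 1.58 ± 0.37.

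Another cluster held 2 of the 6 pairs and was chosen after its values were seen. MSTRG.5632 and MSTRG.5633 lie side by side on opposite strands of NW_004973256.1, next to LOC110358233, from which MSTRG.5633 is separated by 81 bases. MSTRG.5632 had counts of 3257, 3414 and 1667 in HP1, HP2 and HP3, against 507, 1088 and 1915 in LP4, LP5 and LP6. MSTRG.5633 had counts of 2924, 2980 and 1427 in the HP ovaries and 497, 1070 and 1641 in the LP ovaries. Their counts matched closely in every bird although they were assigned to opposite strands, and in both HP3 was below LP6. The log2 fold changes were 1.22 ± 0.48 and 1.16 ± 0.46, and that of LOC110358233 was 1.17 ± 0.46 (edgeR adjusted p = 0.595 in each).

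In the other 2 pairs, MSTRG.26286 had counts of 138, 29 and 64 in HP1, HP2 and HP3, against 16, 16 and 14 in LP4, LP5 and LP6, and LOC110356041 moved the same way (2.23 ± 0.61 and 0.98 ± 0.32). MSTRG.11992 stood at -2.46 ± 1.01 and LOC110361097, 226415 bases away, at 1.11 ± 0.45, in opposite directions.

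The most abundant unnamed intergenic loci did not pass an adjusted test. The locus of highest mean count, chosen after the counts were seen, was MSTRG.28583 (NW_004977616.1:20-2098, no strand, no named locus on the scaffold). It had counts of 56814, 38760 and 50870 in HP1, HP2 and HP3, against 70176, 142297 and 69341 in LP4, LP5 and LP6. Every LP ovary was above every HP ovary, and LP5 was by far the highest (log2 fold change -1.02 ± 0.32, edgeR adjusted p = 0.584). MSTRG.29183, 496 bases from the first base of its scaffold, had counts of 44240, 46023 and 43033 in HP1, HP2 and HP3, against 47562, 66624 and 45801 in LP4, LP5 and LP6, where HP and LP overlapped (-0.33 ± 0.18, adjusted p = 0.665).

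Some of the abundant loci lay close to named genes. MSTRG.24036 lies 178 bases downstream of LPP, a gene of a cell adhesion protein of smooth muscle, and was assigned to the opposite strand. It had counts of 34998, 27863 and 33238 in HP1, HP2 and HP3, against 38180, 59565 and 31919 in LP4, LP5 and LP6, and LPP had 35836, 26478 and 39214 in the HP ovaries and 43680, 57456 and 36659 in the LP ovaries. Both were highest in LP5 and lowest in HP2, with log2 fold changes of -0.50 ± 0.25 and -0.51 ± 0.22 (edgeR adjusted p = 0.639 and 0.611). MSTRG.6429, 202 bases downstream of SUSD6, had counts of 16507, 15845 and 16512 in HP1, HP2 and HP3, against 16523, 18390 and 18805 in LP4, LP5 and LP6 (-0.19 ± 0.09, adjusted p = 0.615). Of the 10 loci of highest mean FPKM it was the only one whose CPM did not overlap between the groups. MSTRG.19778, 12058 bases upstream of SYNPR, which encodes the synaptic vesicle protein synaptoporin, had counts of 16841, 27050 and 20563 in the HP ovaries and 16406, 15544 and 11932 in the LP ovaries (0.50 ± 0.25, adjusted p = 0.636). SYNPR itself had far fewer, with 781 to 1333 counts over the 6 ovaries.

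In the remaining loci of highest FPKM the groups overlapped. MSTRG.27576, 74 bases from LOC102094822, a gene described as NYNRIN-like, had counts of 19016, 2906 and 18244 in HP1, HP2 and HP3, against 9820, 55039 and 12046 in LP4, LP5 and LP6 (log2 fold change -1.03 ± 0.88, edgeR adjusted p = 0.771). MSTRG.17162, MSTRG.28302, MSTRG.28786, MSTRG.28982 and MSTRG.8189 had log2 fold changes between -0.42 and -0.01, with edgeR adjusted p of 0.687 to 0.995 and overlapping groups. That these loci lead by FPKM rests on the lengths implied in that column.

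The longest loci were thinly covered. MSTRG.12048 spans 253446 bases (NW_004973375.1:2186907-2440352, plus strand) and had counts of 567, 907 and 666 in HP1, HP2 and HP3, against 741, 517 and 313 in LP4, LP5 and LP6, with overlapping groups (log2 fold change 0.38 ± 0.39, edgeR adjusted p = 0.818). MSTRG.13762, MSTRG.3216 and MSTRG.13880, of 122538, 120386 and 112240 bases, had log2 fold changes of 0.47 ± 0.31, -0.05 ± 0.36 and 0.30 ± 0.23. Of the 5 longest loci only MSTRG.1237, of 110932 bases, met the limits, with 265, 388 and 209 counts in HP1, HP2 and HP3, against 97, 76 and 150 in LP4, LP5 and LP6 (1.38 ± 0.37, edgeR adjusted p = 0.572). In that locus every HP ovary was above every LP ovary, and its mean FPKM of 0.179 passed the filter of 0.1 only through the HP ovaries.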

How the data were processed

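The authors used Cutadapt to clean the reads, Bowtie2 and HISAT2 for mapping against Cliv_1.0, StringTie for an assembly per sample that was then merged, and StringTie with Ballgown for expression levels. The submitters' processing notes list HISAT2 2.0.4, StringTie 1.3.4, cutadapt 1.9 and FastQC 0.10.1. The table that the authors deposited gives 34346 loci with counts as whole numbers and with FPKM values. In each HP ovary the counts summed to more than the raw reads that the paper reports for that library. A count therefore need not stand for a separate read, and the count totals are not read depths. How the counts were made is not given in the sources used here, and 0 columns of values were left out.

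Overlap and distance were computed from the coordinates in the table, on either strand. The counts were tested with edgeR 4.0.16 (TMM, quasi-likelihood, two-sided, no covariates) in R 4.3.3 on the 28274 loci whose mean FPKM reached 0.1, with Benjamini-Hochberg adjustment over all of them. SE is the size of the log2 fold change divided by the square root of its F value. Alternatives were limma 3.58.1 on log2(FPKM + 1) and on log2(FPKM + 0.1), DESeq2 1.42.0 and its size factors, other filters, wider gaps and each library left out. The fits were tested on simulated data. The total was at least 97875183 counts per library. Precision was limited by the spread between 3 birds per group and, in loci of low count, also by the count itself. The biological coefficient of variation was 0.423. The edgeR and DESeq2 p-values set the group difference against the spread between single birds, estimated with information shared over loci. The exact permutation p-values rank the group difference among the 20 divisions of the birds into 3 against 3.

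The loci, lists and tests were chosen with earlier results of these data known. Named loci were the up to 10 in each direction with the smallest unadjusted p that met the limits without overlap between groups, the 10 of highest mean FPKM, the 5 longest, those at 0 in 1 group with at least 10 counts in each ovary of the other, and those in the primer list. Loci chosen after their values were seen are the 5 of highest mean count and those whose nearest named locus also met the limits. Marker lists were also compiled for adrenal chromaffin cells (3 of 5 matched, 2.35 to 28.0 CPM in HP and 3.67 to 14.8 in LP) and oviduct (1 of 3 matched, 0.300 to 6.45 CPM in HP and 0.103 to 0.323 in LP). Of 18 LOC-numbered neighbours of named loci, 9 had an entry in the RefSeq table of assembly bColLiv1.pat.W.v2, which was used for names only. No genome sequence was used here. The named neighbour of 1 locus is not reported here.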

Additional observations from a re-analysis of the deposited data

How the results depend on the processing

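The number of unnamed intergenic loci that met the limits was 158 of 4000, where the whole table had 880 of 28274. With limma on log2(FPKM + 1) it was 98 (695 in the whole table), and with a pseudocount of 0.1 it was 146 (903). On log2(FPKM + 1) the share of unnamed intergenic loci was thus no higher than that of the whole table. With DESeq2 the number was 183 (1028), without the filter 204 (1127) and with edgeR's filterByExpr 182 (983). With 1 library left out it was 108 without HP2 (702 in the whole table) to 183 without HP3 (1046). Only loci at least 5000 bases from every named locus gave 57 of 1375 (4.15%), a smaller number by construction. Loci on scaffolds without a named locus were not among these 1375. At an adjusted p under 0.05 the number was 0 in edgeR and 36 in DESeq2, and 0 to 1 with 1 library left out (the 1 without LP4). The difference in the share of counts was -0.169 percentage points without the 10 loci of highest count and between -0.361 and -0.254 with 1 library left out. The difference in loci detected, -11.3, was -49 with an FPKM of at least 0.1 as the limit and -25.0 to 2.50 with 1 library left out. At that FPKM limit, unlike at 10 counts, the groups did not overlap. The numbers were 3800 to 3865 in HP and 3867 to 3883 in LP ovaries (two-sided exact permutation test, p = 0.1). The share of loci with a log2 fold change below 0 was 59.4 to 67.0% over all alternatives, which were chosen after the data were seen for this share. The number of loci was 5533 if only overlap on the same or an unknown strand counted and 3710 if a gap of at least 1000 bases to every locus was required.

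Of 37 single loci, 32 kept their direction under every alternative that gave them a value and 5, none of which met the limits, did not. The FPKM filter left no value for MSTRG.25212 without HP2, MSTRG.26455 without LP4 and MSTRG.26769 without LP6, each time the ovary of its highest count, and MSTRG.28598 was fitted only without the filter and with filterByExpr. With limma on log2(FPKM + 1) and log2(FPKM + 0.1) the log2 fold change was 0.067 and 0.068 in MSTRG.8189, 0.22 and 0.23 in MSTRG.28302, and 0.0037 and 0.044 in MSTRG.3216. With 1 library left out it was -0.14 to 0.29 in MSTRG.8189, -1.41 to 0.23 in MSTRG.27576, -0.36 to 0.020 in MSTRG.17162, -0.29 to 0.71 in MSTRG.28302 and -0.26 to 0.39 in MSTRG.3216. The cause was not tested. DESeq2 took 21 of the 37 past an adjusted p of 0.05. No paired analysis was possible because the replicate numbers of the groups are not shared. The log2 fold changes spread more widely at low counts. Their 10th and 90th percentiles were -1.20 and 0.88 at mean counts under 50, against -0.52 and 0.29 at 1000 counts or more. The FPKM filter kept 844 loci out of the test, and it did so mostly at low counts. Of the loci with a mean count under 50, 53.5% were tested. The share was 85.4% at 50 to under 200, 98.3% at 200 to under 1000 and 100% at 1000 counts or more.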
